A study of Mus musculus with 12 samples.

Results

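Tight junction transcripts were measured in the back skin of mice with psoriasis-like lesions. The genes described were 9 claudins (Cldn1, Cldn3, Cldn4, Cldn5, Cldn7, Cldn8, Cldn10, Cldn11 and Cldn23) and occludin (Ocln), which were the rows with these symbols, 10 of the 18505 gene symbols in the table. The rule that picked these rows was their names, and the names were listed with earlier results of these data known. All animals were male wild-type BALB/c mice of 5 to 6 weeks, and shaved skin of the back was collected on day 10 in 3 groups of 4 samples. The control group had petroleum jelly according to the methods of the study, and the labels describe it only as blank handling. The IMQ+NS group had imiquimod (IMQ) cream, which activates Toll-like receptors and gives psoriasis-like lesions, for 6 hours and was then covered with normal saline (NS, 0.9% sodium chloride). The IMQ+BZLF group had the same cream and then the Banzhilian formula (BZLF), a Chinese herbal preparation put on the skin. According to the methods, the cream was applied daily for 10 days in a row. The cover of both lesion groups was fixed with gauze and a polyurethane film. No such dressing is described for controls, so cream and dressing cannot be told apart in the comparisons with controls. The dose of BZLF behind the sequenced samples is not given in the sources used here.

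Tight junctions seal the space between neighbouring cells. Claudins are membrane proteins whose strands form this seal, and some of them form pores for selected ions. In the epidermis tight junctions lie in the granular layer, below the cornified layer, and mice without claudin-1 die soon after birth from loss of water through the skin. Occludin belongs to another family, the MARVEL proteins, and joins the same strands, while claudin-5 is the claudin of blood vessel endothelium.

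The stretches before the start sites of Cldn1, Cldn3, Cldn4 and Cldn5 are shown because Cldn1 and Cldn4 were the claudins with the highest levels in lesions, Cldn3 is the neighbour of Cldn4 on the chromosome, and Cldn5 moved the opposite way. They are the 250 bases before each start site in RefSeq (GRCm38.p6), 5′ to 3′ on the strand of the gene, and capitals mark the motif matches given below them.
Cldn1, chr16:26371840-26372089, minus strand: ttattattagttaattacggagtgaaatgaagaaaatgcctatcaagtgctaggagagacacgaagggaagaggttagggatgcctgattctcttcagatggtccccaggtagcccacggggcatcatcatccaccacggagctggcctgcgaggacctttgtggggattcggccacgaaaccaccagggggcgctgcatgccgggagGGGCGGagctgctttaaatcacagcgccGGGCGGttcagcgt
Cldn3, chr5:134985964-134986213, plus strand: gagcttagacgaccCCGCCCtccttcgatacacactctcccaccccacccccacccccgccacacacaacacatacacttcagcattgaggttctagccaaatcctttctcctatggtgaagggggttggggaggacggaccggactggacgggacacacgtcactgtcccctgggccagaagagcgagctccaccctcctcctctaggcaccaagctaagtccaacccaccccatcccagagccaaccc
Cldn4, chr5:134946935-134947184, minus strand: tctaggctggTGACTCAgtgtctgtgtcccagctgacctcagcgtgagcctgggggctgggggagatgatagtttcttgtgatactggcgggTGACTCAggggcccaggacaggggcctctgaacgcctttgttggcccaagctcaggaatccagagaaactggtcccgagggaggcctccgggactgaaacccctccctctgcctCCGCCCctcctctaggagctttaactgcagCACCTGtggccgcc
Cldn5, chr16:18776597-18776846, plus strand: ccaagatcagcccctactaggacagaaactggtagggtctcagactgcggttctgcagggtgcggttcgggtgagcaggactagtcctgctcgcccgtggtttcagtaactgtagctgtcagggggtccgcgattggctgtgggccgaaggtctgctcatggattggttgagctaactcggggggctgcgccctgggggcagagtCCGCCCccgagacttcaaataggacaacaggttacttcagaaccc

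These motifs were searched for on both strands. The GC box GGGCGG, read by Sp factors, stood in all 4 of these windows and in 32.7% of the 32851 mouse windows of the same length. Cldn1 held it at 42 and at 14 bases before the start site, Cldn4 at 44 and Cldn5 at 45, and Cldn3 far from its start, at 236. Among the 4, the Cldn4 window alone held the AP-1 motif TGANTCA, at 240 and 158 bases before the start, and the E-box CAGGTG of the Snail and Zeb factors, at 14 bases. These stood in 6.75% and 17.2% of all windows. The Grainyhead-like motif AACCGGTT, in 0.116% of all windows, and the TATA box TATAAA, in 12.4%, were in none of the 4. No match overlapped another, and a match is a match of letters only. Windows were found for 8 of the 10 genes, and no window for Cldn8 or Cldn23 was used.

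Cldn4 (chr5:134945123-134946934, minus strand) and Cldn3 (chr5:134986214-134987476, plus strand) lie 39279 bases apart with 0 protein-coding genes between them. Cldn1 lies at chr16:26356645-26371839, Cldn5 at chr16:18776847-18778262, and Cldn8 at chr16:88560826-88563183. Cldn7 lies at chr11:69964779-69967886, Cldn10 at chr14:118787871-118874525, Cldn11 at chr3:31149920-31164326, Cldn23 at chr8:35824709-35826559 and Ocln at chr13:100496504-100552718. The exon of Cldn3 overlaps Wbscr25 on the opposite strand, and whether strand was used in the counting is not given in the sources used here, so reads of the shared stretch cannot be assigned to either gene with certainty.

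Levels are FPKM, fragment counts scaled by transcript length and by sequencing depth, which allows comparison between genes. The FPKM of a sample summed to 444660 to 506622 over all genes. Control replicate 2 stood apart from the other controls. On the first principal component, which held 76.4% of the variance, it lay at -63.2, the other controls lay at -122 to -116, and the lesions lay at 43.4 to 62.3. Its summed FPKM of 10 hair shaft genes was 311 against 15.2 to 33.6 in the other controls, and that of 6 proliferation genes was 153 against 15.9 to 26.1. Results of the 10 genes are therefore given without it where it changes a call or an overlap between groups. Genes of other organs were also seen, in some of them by replicate number. Seminal vesicle genes summed to 42.5 FPKM in control replicate 2 and 41.6 in IMQ+BZLF replicate 2 but to at most 0.0441 in the others, and kidney genes to 5.54 in control replicate 1 and 4.02 in IMQ+BZLF replicate 1 but to at most 0.146 in the others. Pancreas genes summed in replicates 1 to 4 to 155, 171, 178 and 16.1 FPKM in controls and to 149, 165, 164 and 16 in IMQ+BZLF, against 36.5, 44.0, 194 and 2.03 in IMQ+NS. Control and IMQ+BZLF libraries of the same number were thus alike in these 3 lists. The liver list was led by Cyp2e1, at 125 to 1116 FPKM in controls and 58.0 to 112 in lesions, while its albumin gene (Alb) was at 1.46 to 8.0 FPKM. Their part in the claudin values was not tested.

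In control skin Cldn1, Cldn5 and Cldn10 were the most abundant of the 10 genes, at 42.2 ± 12.4, 39.5 ± 10.9 and 37.6 ± 4.39 FPKM (mean ± SD, n = 4), and these levels did not differ beyond their spread. Cldn4 followed at 25 ± 8.85 FPKM, its highest sample reaching the range of Cldn10. Lower down were Cldn23 at 7.53 ± 3.64, Ocln at 3.84 ± 0.804 and Cldn3 at 3.39 ± 0.715 FPKM. Cldn8 had 1.48 ± 0.738, Cldn11 1.26 ± 0.358 and Cldn7, the lowest, 0.478 ± 0.375 FPKM. In this order the ranges of each pair of neighbours overlapped, except those of Cldn4 and Cldn23. No gene was listed at 0 in any sample, and all 10 passed the filter on low values, a mean of at least 0.1 FPKM over the 12 samples.

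**Figure D1:**
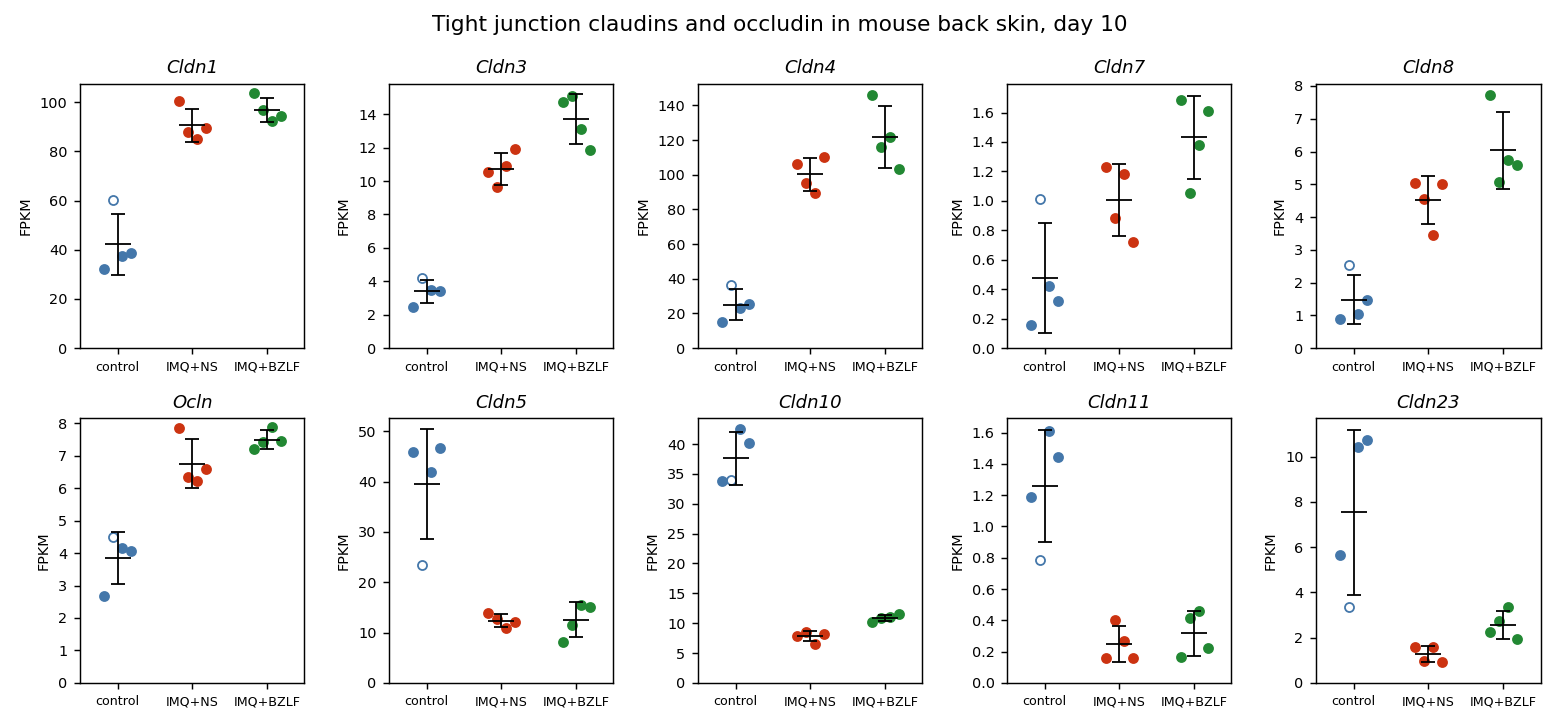
FPKM of each of the 10 genes (vertical axes, each with its own scale) in the 4 samples of each group; points are samples, the open circle is control replicate 2, and bars are mean ± SD. Cldn1, Cldn3, Cldn4, Cldn8 and Ocln lie higher in every lesion sample than in every control sample, and Cldn5, Cldn10, Cldn11 and Cldn23 lie lower in every IMQ+NS sample than in every control sample.

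The first comparison, IMQ+NS against control, asks which junction genes differ in the lesion. Here 6 of the 10 genes rose and 4 fell at an adjusted p below 0.05 (limma, Benjamini-Hochberg over 15288 genes), where 29.0% of all genes rose and 27.1% fell. As differentially expressed genes (DEGs), which also need a change of more than 2-fold, 5 were higher and 4 lower, where 11.4% of all genes were higher and 11% lower. The values of the groups did not overlap in 9 of the 10, against 49.4% of all genes. The median log2 fold change was 0.97 over the 10 genes and 0.05 over all genes tested.

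Cldn4, a sealing claudin and receptor of a clostridial toxin, had the largest rise among the 10 genes. Its FPKM in replicates 1 to 4 was 15.2, 36.6, 23.1 and 25.3 in controls, 106, 95.3, 89.7 and 110.5 in IMQ+NS, and 146, 116, 122 and 103 in IMQ+BZLF. Every lesion sample was above every control, and the highest control was replicate 2. The level in IMQ+NS was 4.18-fold that in controls, a log2 fold change of 2.06 (SE 0.229, adjusted p = 0.000138).

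Cldn1, the main sealing claudin of the epidermis, had FPKM values of 32.2, 60.3, 37.7 and 38.5 in controls, 100.5, 87.8, 84.9 and 89.4 in IMQ+NS, and 104, 96.9, 92.2 and 94.5 in IMQ+BZLF. Control replicate 2 was again the highest of its group and was below all lesions. The gene rose 2.21-fold in IMQ+NS, a log2 fold change of 1.14 (SE 0.175, adjusted p = 0.000732). The ratio of Cldn4 to Cldn1 FPKM ran from 0.471 to 0.657 in controls, from 1.06 to 1.24 in IMQ+NS and from 1.09 to 1.41 in IMQ+BZLF, so Cldn4 was the lower transcript in each control and the higher in each lesion.

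Cldn3, a close relative of Cldn4 that binds the same toxin, was measured at 2.46, 4.2, 3.48 and 3.43 FPKM in controls, 10.5, 9.62, 10.9 and 11.9 in IMQ+NS, and 14.7, 15.1, 13.1 and 11.9 in IMQ+BZLF. Controls and lesions were well apart. The gene rose 3.15-fold in IMQ+NS, a log2 fold change of 1.66 (SE 0.158, adjusted p = 6.28e-05).

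Cldn8, known from the distal nephron and the colon, had 0.881, 2.52, 1.05 and 1.47 FPKM in controls, 5.03, 4.56, 3.46 and 5.02 in IMQ+NS, and 7.72, 5.08, 5.75 and 5.58 in IMQ+BZLF. The lesions were all above the controls, with replicate 2 nearest to them. The rise in IMQ+NS was 3.11-fold, a log2 fold change of 1.64 (SE 0.294, adjusted p = 0.00167). Ocln had 2.67, 4.49, 4.16 and 4.05 FPKM in controls, 7.86, 6.34, 6.21 and 6.61 in IMQ+NS, and 7.20, 7.41, 7.89 and 7.46 in IMQ+BZLF. It rose without overlap but by less than 2-fold, with a log2 fold change of 0.82 (SE 0.168, adjusted p = 0.00346), and so was not a DEG.

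Cldn7, a claudin of the lateral membrane that binds EpCAM, was the gene with overlap. Its FPKM was 0.155, 1.02, 0.422 and 0.319 in controls, 1.23, 0.881, 1.18 and 0.721 in IMQ+NS, and 1.68, 1.06, 1.38 and 1.61 in IMQ+BZLF. Control replicate 2 lay within the range of the IMQ+NS samples. The log2 fold change was 1.12 (SE 0.411, adjusted p = 0.0450), and the two-sided exact permutation test gave p = 0.0857. Without control replicate 2 the log2 fold change was 1.5 (adjusted p = 0.0018), whereas leaving out any other single sample raised the adjusted p to 0.0553 to 0.105. It also missed the threshold with no filter on low values (0.0684) and with samples scaled to equal sums (0.0718), so the counts of 6 risen genes and 5 higher DEGs rest in part on this gene.

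Markers of keratinocyte contacts and of the hair follicle rose in IMQ+NS against controls, as these genes did. Of 6 adherens junction and desmosome genes all 6 rose in IMQ+NS, and their summed FPKM was 621 to 896 in controls, 1703 to 1854 in IMQ+NS and 1447 to 1644 in IMQ+BZLF. Among them E-cadherin (Cdh1) went from 29.6 ± 7.16 to 67.4 ± 5.04 FPKM, a log2 fold change of 1.21 (adjusted p = 0.000282). All 7 inner root sheath genes rose too, with a summed FPKM of 19.3 to 57.5 in 3 controls, 1959 in control replicate 2, 8180 to 10397 in IMQ+NS and 10100 to 14267 in IMQ+BZLF. All 6 hyperproliferative keratinocyte genes rose in IMQ+NS, with a median log2 fold change of 7.22. Their summed FPKM was 190 to 616 in controls, 2482 to 4517 in IMQ+NS and 1184 to 1422 in IMQ+BZLF. Suprabasal and basal keratinocyte markers were mixed. Of 8 suprabasal genes 5 rose and 2 fell in IMQ+NS, and their summed FPKM overlapped, at 1357 to 3408 in controls and 1801 to 3973 in IMQ+NS. Of 6 basal genes 4 rose and 1 fell, with sums of 1346.6 to 1816.6 in controls and 3346.2 to 5434.5 in IMQ+NS. In bulk skin, more cells of a type and more RNA per cell cannot be told apart, and the part of these markers in the claudin values was not tested.

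Cldn10, whose splice forms make pores for cations or anions, fell with the smallest spread of the 4 lower genes. Its FPKM was 33.9, 33.9, 42.5 and 40.1 in controls, 7.84, 8.49, 6.59 and 8.24 in IMQ+NS, and 10.1, 10.8, 11 and 11.5 in IMQ+BZLF. The 3 groups did not overlap, and control replicate 2 was at the level of replicate 1. The level in IMQ+NS was 4.78-fold lower, a log2 fold change of -2.26 (SE 0.114, adjusted p = 1.78e-06). The table has 1 value per gene, so the splice forms were not separated.

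Cldn23, a less studied claudin of epithelia, had 5.64, 3.34, 10.4 and 10.7 FPKM in controls, 1.59, 0.974, 1.57 and 0.929 in IMQ+NS, and 2.23, 2.73, 3.37 and 1.93 in IMQ+BZLF. Its controls were uneven, with replicate 2 the lowest, but stayed above all IMQ+NS samples. The gene fell 5.18-fold in IMQ+NS, with a log2 fold change of -2.37 (SE 0.377, adjusted p = 0.000871).

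Cldn11, best known from the myelin of the brain and from Sertoli cells, was measured at 1.19, 0.788, 1.61 and 1.44 FPKM in controls, 0.159, 0.405, 0.266 and 0.160 in IMQ+NS, and 0.165, 0.417, 0.460 and 0.222 in IMQ+BZLF. Every lesion was below every control. The log2 fold change in IMQ+NS was -1.98 (SE 0.287, adjusted p = 0.000547), on a scale with 0.1 added to each FPKM, which understates changes at such low levels. Markers of several cell types fell as well, among them those of peripheral nerve myelin and fibroblasts. The summed FPKM of 8 Schwann cell genes was 203 to 272 in controls, 76.0 to 91.2 in IMQ+NS and 78.0 to 122 in IMQ+BZLF, and that of 6 fibroblast genes was 13084 to 18643, 3681 to 4890 and 4286 to 8109. Of these lists 7 of 8 and 5 of 6 genes fell in IMQ+NS. Falls were not particular to these cell types. All 6 skeletal muscle genes and 3 of 4 adipocyte genes fell in IMQ+NS, and 0 rose on either list. Of 9 sebaceous gland genes 6 fell and 2 rose. The part of any of these lists in the fall of Cldn11 was not tested.

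Cldn5 had 46.0, 23.4, 41.9 and 46.8 FPKM in controls, 13.8, 12.8, 10.8 and 12.1 in IMQ+NS, and 8.06, 11.5, 15.4 and 15.1 in IMQ+BZLF. Control replicate 2 was the lowest control but lay above all lesions. The gene fell 3.07-fold in IMQ+NS, with a log2 fold change of -1.62 (SE 0.213, adjusted p = 0.000332).

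Because Cldn5 belongs to endothelium, it was set against 12 other endothelial markers. Of these, 8 fell in IMQ+NS and none by more than 2-fold, with a median log2 fold change of -0.55, and each of the 12 was above 0 in at least 1 sample of every group. Their summed FPKM was 170 to 198 in controls, 115 to 140 in IMQ+NS and 88.9 to 139 in IMQ+BZLF. Control replicate 2, the lowest in Cldn5, stayed in this range through Sox18 (60.5 FPKM against 20.1 to 29.2 in the other controls). Its other 11 markers summed to 125 FPKM against 150 to 169, and 10 of them were lowest there among the controls. The marker with the highest level, Pecam1, had 36.2 ± 4.13 FPKM in controls and 30.7 ± 3.29 in IMQ+NS. The log2 level of Cldn5 minus the mean log2 level of the 12 markers was 1.80 ± 0.343 in controls, 0.70 ± 0.198 in IMQ+NS and 0.85 ± 0.278 in IMQ+BZLF. Relative to these markers Cldn5 was thus lower in IMQ+NS than in controls by a log2 difference of -1.09 (two-sided exact permutation test, p = 0.0286, the smallest that 4 against 4 samples allow). IMQ+BZLF differed from controls by -0.95 (p = 0.0286 in the exact test) and from IMQ+NS by 0.15 (exact p = 0.486).

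The 5 markers of lymphatic endothelium fell more than the blood vessel list. All 5 fell in IMQ+NS, 3 of them (Lyve1, Mmrn1 and Prox1) as DEGs, with a median log2 fold change of -1.29 and a summed FPKM of 64.0 to 80.4 in controls, 37.2 to 41.1 in IMQ+NS and 24.7 to 39.2 in IMQ+BZLF. Set against these instead, a choice made after seeing the data, Cldn5 differed from controls by -0.36 in IMQ+NS (exact permutation test, p = 0.143) and by -0.43 in IMQ+BZLF (exact p = 0.114). The fall of Cldn5 beyond its markers thus passed the test against the 12 markers and not against the 5 lymphatic ones.

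**Figure D2:**
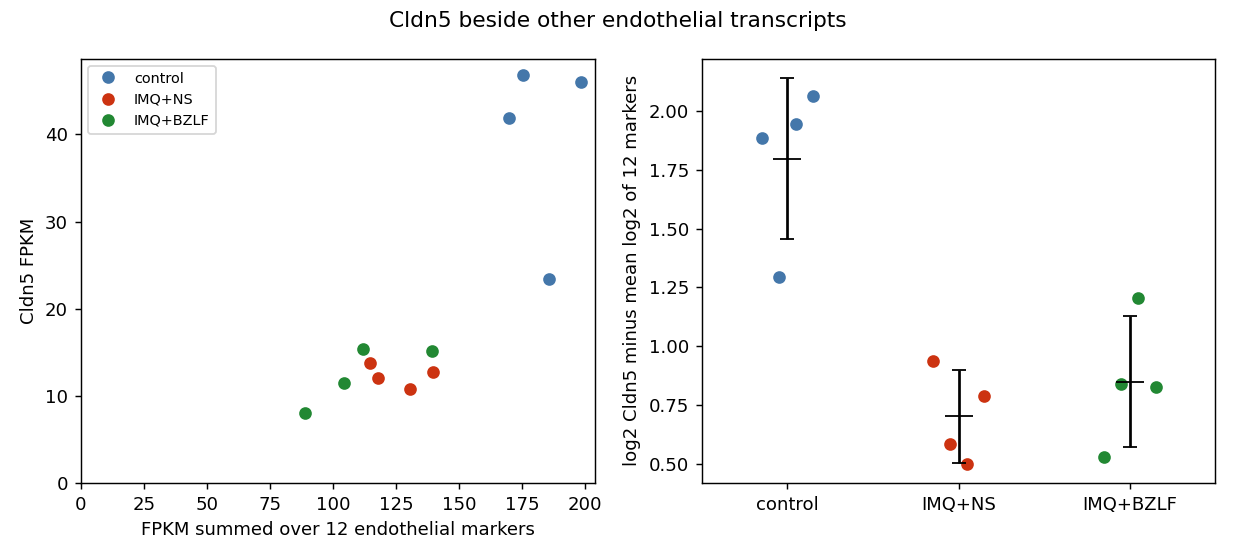
Left, FPKM of Cldn5 (vertical axis) against the summed FPKM of 12 endothelial markers (horizontal axis) in each of the 12 samples; right, log2 level of Cldn5 minus the mean log2 level of the markers in each sample, with mean ± SD by group. The difference averages 1.80 in controls, 0.70 in IMQ+NS and 0.85 in IMQ+BZLF.

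The rises and falls changed which claudins made up the total. The summed FPKM of the 9 claudins was 158 ± 14.1 in controls, 229 ± 17.0 in IMQ+NS and 266 ± 20.7 in IMQ+BZLF. In controls Cldn1, Cldn5, Cldn10 and Cldn4 held 26.5%, 25.3%, 23.8% and 15.6% of it. In IMQ+NS Cldn4 held 43.8% ± 1.62 and Cldn1 39.6% ± 1.53 (SD, n = 4), while Cldn5 held 5.40%, Cldn10 3.40% and Cldn23 0.556%. In IMQ+BZLF Cldn4 held 45.6% ± 3.12 and Cldn1 36.5% ± 1.70. The FPKM ranges of Cldn4 and Cldn1 overlapped in both lesion groups, so their order there rests on the ratio within each sample given above. In IMQ+NS the next in level were Cldn5 and Cldn3, which overlapped, then Cldn10 and Ocln, which overlapped too, then Cldn8, and last Cldn23, Cldn7 and Cldn11. In IMQ+BZLF Cldn3, at 13.7 ± 1.49 FPKM, overlapped Cldn5, at 12.5 ± 3.47, which overlapped Cldn10, at 10.9 ± 0.542. Ocln and Cldn8 came next and overlapped, and Cldn23, Cldn7 and Cldn11 were again the lowest.

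**Figure D3:**
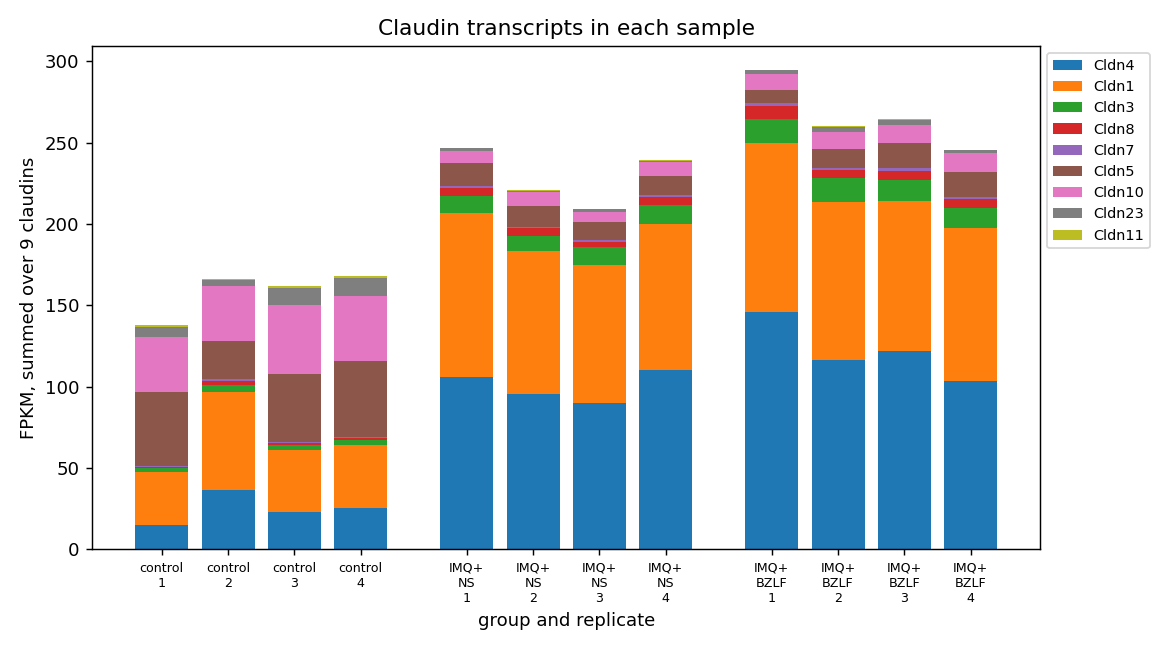
FPKM of the 9 claudins stacked for each of the 12 samples (vertical axis, summed FPKM; horizontal axis, group and replicate). Cldn1 and Cldn4 fill most of each lesion bar, and Cldn5 and Cldn10 together take a large part of each control bar.

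Setting IMQ+BZLF beside IMQ+NS asks what the formula changed in the lesion. Of the 10 genes 0 were higher and 0 were lower DEGs by limma, where 0.321% of all genes were higher and 2.20% lower, and 6 of the 10 had an unadjusted p below 0.05, as did 22.7% of all genes. At an adjusted p below 0.05, 2 rose and 0 fell, where 1.28% of all genes rose and 5.17% fell. The groups did not overlap for 3 genes, against 15.2% of all genes. The median log2 fold change was 0.31 over the 10 genes and -0.02 over all genes.

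The genes that rose, Cldn10 and Cldn23, were among those that were lower in IMQ+NS than in controls, a contrast that uses the same IMQ+NS samples. Cldn10 was 1.39-fold higher with BZLF, a log2 fold change of 0.48 (SE 0.086, adjusted p = 0.0140), and every IMQ+BZLF sample was above every IMQ+NS sample. Cldn23 was 1.96-fold higher, a log2 fold change of 0.97 (SE 0.225, adjusted p = 0.0372), also without overlap. The call of Cldn10 held in every alternative, with an adjusted p of 0.00908 to 0.0479. That of Cldn23 was lost in 3 of them and also without IMQ+NS replicate 2 or 4 or IMQ+BZLF replicate 2 or 3, with an adjusted p of up to 0.167.

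Cldn8 was the third gene without overlap, with a log2 fold change of 0.41 (95% interval 0.05 to 0.76) and an adjusted p of 0.163. The estimate for Cldn3 was 0.35 (0.13 to 0.56, adjusted p = 0.0637), that for Cldn4 0.27 (0.03 to 0.52, adjusted p = 0.179) and that for Cldn7 0.48 (0.03 to 0.93, adjusted p = 0.192). These 4 did not pass the test, though their intervals lay above 0. Cldn1 and Ocln changed by less, with intervals of -0.05 to 0.25 and -0.04 to 0.34 and adjusted p-values of 0.420 and 0.315. For Cldn5 the log2 fold change was -0.02 (-0.46 to 0.41) and for Cldn11 0.25 (-0.47 to 0.96), with adjusted p-values of 0.957 and 0.688, so a change of either gene within these wide intervals was not detectable. In the same samples the 7 neutrophil genes summed to 3128 to 9892 FPKM in IMQ+NS and 62.7 to 83.6 in IMQ+BZLF. The sum in IMQ+NS was led by S100a8 (1569 to 4874 FPKM) and S100a9 (1537 to 4957), while Csf3r was at 8.76 to 22.8. All 7 were lower DEGs with BZLF. Of 6 hyperproliferative keratinocyte genes 5 were lower DEGs too, with a median log2 fold change of -3.26, and 4 of 6 basal keratinocyte genes fell. The part of these lists in the claudin values was not tested.

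**Figure D4:**
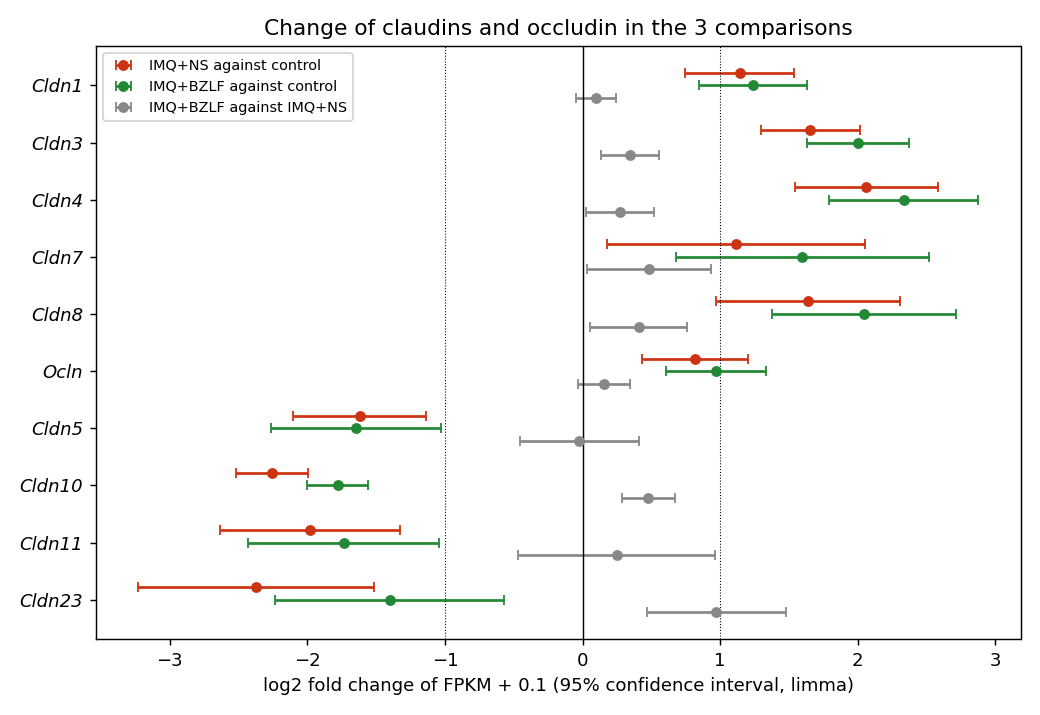
Log2 fold change (horizontal axis) with its 95% interval for each of the 10 genes in the 3 comparisons, from limma on log2(FPKM + 0.1), n = 4 per group; dotted lines mark 2-fold changes. Against controls the intervals of all 10 genes exclude 0 in both lesion groups; between the lesion groups the estimates run from -0.02 for Cldn5 to 0.97 for Cldn23.

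Against controls, with the same control samples as above, IMQ+BZLF had 5 of the 10 genes as higher DEGs and 4 as lower DEGs, where 9.65% of all genes were higher and 10.1% lower. At an adjusted p below 0.05 alone, 6 rose and 4 fell, where 23.8% and 29.2% of all genes did. The groups did not overlap for 9 genes, against 47.5% of all genes. Cldn4 was higher by a log2 fold change of 2.33 (adjusted p = 0.000153), Cldn8 by 2.04 (adjusted p = 0.000711) and Cldn3 by 2.0 (adjusted p = 4.26e-05). Cldn7 was higher by 1.60 (adjusted p = 0.0102), Cldn1 by 1.24 (adjusted p = 0.000613) and Ocln by 0.97 (adjusted p = 0.00129), the last less than 2-fold. The lower genes were Cldn10 at -1.78 (adjusted p = 3.67e-06), Cldn11 at -1.73 (adjusted p = 0.00181), Cldn5 at -1.64 (adjusted p = 0.00138) and Cldn23 at -1.40 (adjusted p = 0.0118). For Cldn23 the lowest control, replicate 2, overlapped the IMQ+BZLF samples, and the exact permutation test gave p = 0.0571. The other controls lay above all IMQ+BZLF samples, and without replicate 2 the log2 fold change was -1.74 (limma, adjusted p = 0.000537). Thus Cldn10 and Cldn23, the genes that rose with BZLF against IMQ+NS, were still lower DEGs against controls.

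Other genes of the junction, its proteases and its transcription factors were taken from 7 lists of 77 genes, of which 66 were tested. In IMQ+NS 29 were higher DEGs and 4 lower DEGs, with a median log2 fold change of 0.77, where 11.4% of all genes were higher and 11% lower. On the 5 lists of junction proteins alone, 13 of 44 were higher and 4 lower, with a median of 0.54, and the other 16 higher DEGs were transcription factors, claudin partners and proteases. Of 7 other claudins tested, 3 were higher and 2 lower. Cldn12 went from 4.60 ± 0.582 to 11.8 ± 1.65 FPKM, a log2 fold change of 1.34 (adjusted p = 8.08e-05). Cldn14, known from the inner ear, was at 0.0127 to 0.763 FPKM in controls and 2.13 to 3.68 in IMQ+NS (3.82, adjusted p = 0.000931), and Cldn17, which lies 53847 bases from Cldn8, was at 0 to 0.0853 and 0.722 to 1.58 FPKM (adjusted p = 7.07e-05). The lower ones were Cldn22, with a log2 fold change of -2.26, and Cldn19, a claudin of Schwann cells, with -1.32. Cldn9 was at 0.0893 to 0.514 FPKM in controls, 0 to 0.163 in IMQ+NS and 0 to 0.0541 in IMQ+BZLF. It passed the filter on low values only through the controls, and its IMQ+BZLF values lay below the 0.1 added. It was called a lower DEG in IMQ+BZLF against controls, at -1.59 (adjusted p = 0.00705), and its log2 fold change in IMQ+NS was -1.14 (adjusted p = 0.0594). Both results of Cldn9 depend on that filter and on the constant added.

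At the corners where 3 cells meet, the angulins Lsr and Ildr1 rose in IMQ+NS by log2 fold changes of 1.10 and 1.96, whereas Ildr2 fell by 1.87. Tricellulin (Marveld2), which they recruit, rose by 0.57 (adjusted p = 0.0451). Of 5 immunoglobulin-like junction proteins F11r (JAM-A, 1.08) and Cxadr (1.20) were higher DEGs, and Jam2, found on endothelium, was a lower DEG (-1.59). At an adjusted p below 0.05 alone, 2 of these 5 rose and 3 fell, with a median of -0.65. Of 14 scaffold genes 5 rose and 3 fell at that threshold, with a median of -0.08. Among the scaffolds that tie claudins to actin, Tjp1 (ZO-1) rose from 10 ± 0.497 to 18.9 ± 0.918 FPKM, by less than 2-fold (0.91, adjusted p = 2.87e-05), and Tjp3 (ZO-3) stood at -0.59 (adjusted p = 0.0615). Patj, a scaffold of the Crumbs complex, was a higher DEG (1.17, adjusted p = 0.00106).

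Of 13 polarity genes 4 were higher DEGs, namely Pard6b (2.45), Llgl2 (1.43), Crb3 (1.41) and Pard6g (1.12), and 0 were lower. Of 8 genes for claudin partners and membrane proteases 6 were higher DEGs. They were Epcam (1.10), the channel-activating protease Prss8 (1.58), matriptase St14 (2.07), its inhibitor Spint1 (2.41), Tmprss11e (2.68) and the kinase Wnk4 (1.44). Of 14 transcription factors linked to epithelial junction genes 10 were higher DEGs. They were Ehf (3.66), Elf3 (2.16), the AP-2 genes Tfap2a (1.84) and Tfap2c (1.22), the Grainyhead-like genes Grhl1 (1.57), Grhl3 (1.42) and Grhl2 (1.21), and Klf5 (1.17), Snai2 (1.15) and Trp63 (1.14). The Snail and Zeb factors did not move together, Snai2 being higher as given above. Snai1 overlapped between the groups, at 5.33 to 15.9 FPKM in controls and 8.39 to 9.53 in IMQ+NS. Zeb2 was lower, at 15.3 to 18.6 FPKM in controls and 10.1 to 11.8 in IMQ+NS. Zeb1 fell (-0.95, adjusted p = 0.00103) but was not a DEG on the scale with 0.1 added. Its FPKM went from 1.38 ± 0.18 to 0.668 ± 0.107. Klf4, a factor of the upper epidermis, stood at 0.04 (adjusted p = 0.756).

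With BZLF against IMQ+NS these lists gave 0 higher DEGs and 1 lower of 66 (1.52%, where 2.20% of all genes were lower), Elf3, an epithelial ETS factor. Its level went from 1.76 ± 0.576 to 0.656 ± 0.134 FPKM, a log2 fold change of -1.26 (SE 0.232, adjusted p = 0.0150). It was not a DEG with 1 added to each FPKM, was left out by a filter of a mean FPKM of at least 1, and was not a DEG without IMQ+NS replicate 4 or IMQ+BZLF replicate 2. At an adjusted p below 0.05 another 6 genes changed by less than 2-fold. Ehf (-0.80), Grhl3 (-0.46), Cxadr (-0.31) and Trp63 (-0.25) were lower, and the scaffold genes Cgnl1 (0.31) and Amotl2 (0.27) were higher. Against controls, IMQ+BZLF had 24 higher and 5 lower DEGs of 66 on these lists, where 9.65% of all genes were higher and 10.1% lower.

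**Figure D5:**
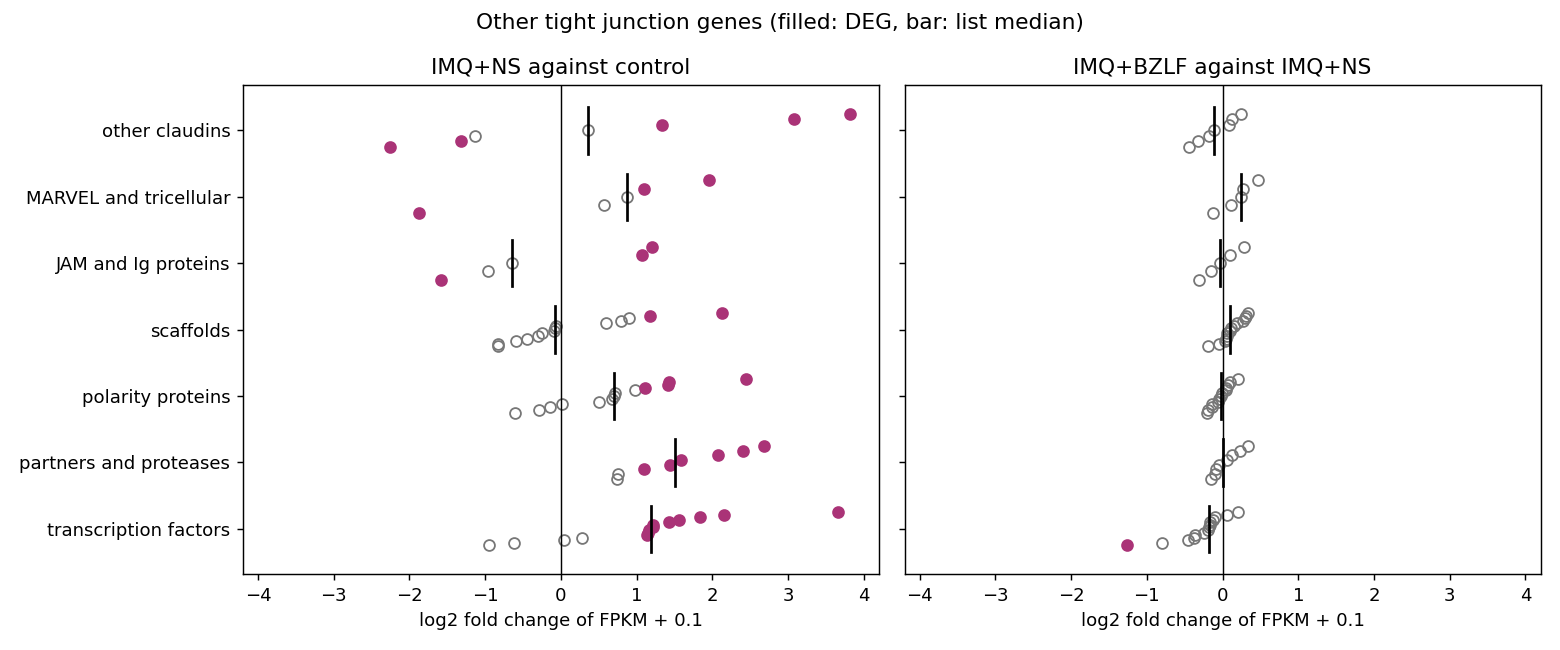
Log2 fold change (horizontal axes) of each tested gene on the 7 lists of junction genes, for IMQ+NS against control (left) and IMQ+BZLF against IMQ+NS (right); filled points are DEGs and the bar is the median of a list. On the left 29 of 66 genes are higher DEGs and 4 lower, and on the right 1, Elf3, is lower.

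For each of the 10 genes, the genes most like it over the 12 samples were taken by Pearson's r of log2(FPKM + 0.1) among 12649 genes. The samples form groups, which alone give high values, so r is a description here. Cldn4 was closest to Dusp2 and Proser2 (r = 0.997 each), Cldn1 to Lratd1 and Calhm5 (0.997 each) and then to the gap junction gene Gja1 (0.995), and Cldn8 to Nfil3 (0.994) and Tfap2b (0.992). Cldn3 was closest to Cpm (0.992). Ocln was closest to Trp53inp1 (0.982), and the next were the junction genes Patj (0.980) and Lsr (0.973). Cldn10 was closest to Mgl2 (0.995), a lectin of dermal macrophages and dendritic cells, Cldn5 to Fxyd6 (0.989), Cldn11 to Rnase4 (0.984) and Cldn23 to Sebox (0.973). Cldn7, the least abundant in controls, had the lowest best match of the 10 genes, Pot1b (0.962).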

How the data were processed

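RNA-seq was analysed in 12 samples of mouse back skin, 4 per group. The authors deposited FPKM values with 1 value per gene and sample; the methods of the study name Bowtie2, eXpress and a stranded total RNA kit, while the labels name fastp, HISAT2, HTSeq, R 3.2.0, mm10, TRIzol and another library kit. Which of these made the deposited FPKM values is not settled by the sources used here. Read counts were not used here, so the depth behind a value is unknown, and precision comes from the 4 replicates. The labels give separate samples of a group, and p-values measure the spread between these. Groups came from the labels. FPKM was tested as log2(FPKM + 0.1) with limma 3.58.1 in R 4.3.3 (linear model, moderated variances with a trend), pair by pair, over the 15288 genes with a mean of at least 0.1, with Benjamini-Hochberg adjustment. DEGs passed 0.05 on that adjusted p and changed by more than 1 on the log2 scale. The study's count test could not be run on FPKM. Single values were compared by two-sided exact permutation tests over 70 assignments. The limma step was tested on simulated data. Alternatives were another added constant, filter, scaling or model, a replicate block and leaving out each sample. Promoters came from RefSeq (GRCm38.p6). The genes, the lists and the rule for named genes (all 10 genes, each DEG on the 7 junction lists, a few fixed genes, the 3 most similar genes for each and leading markers) were chosen with earlier results of these data known; genes outside the rule, such as Cgnl1, Amotl2, Zeb1 and Klf4, were named after their values were seen. A gene that this rule names is not reported here. Python 3.11.15 with scipy 1.17.1 was used.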

Additional observations from a re-analysis of the deposited data

How the results depend on the processing

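The DEG counts of the 10 genes against controls stayed within 1.5 times under every alternative run. With BZLF against IMQ+NS, Cldn23 became a higher DEG (1 of the 10 genes) with 0.01 added (1.03), median ratio scaling (1.02) or quantile scaling (1.01), and without single samples the count was 0 to 1. The number of the 10 genes that rose at an adjusted p below 0.05 was 1 with no filter, with all 12 samples in 1 fit or with no trend, and 1 to 2 without single samples. Cldn5, near 0 there, changed sign with median ratio (0.0319), equal sums (0.0059) and quantile scaling (0.0407), and ran from -0.14 to 0.17 without single samples. With 1 added, Cldn7 in IMQ+NS was at 0.46 and in IMQ+BZLF at 0.74 against controls, and Cldn11 at -0.85 and -0.77, none of them DEGs, and the filter of a mean FPKM of at least 1 left out Cldn7 and Cldn11. Ocln in IMQ+BZLF passed 2-fold without control replicate 2 (1.05), 3 (1.02) or 4 (1.0). Relative to endothelial markers, Cldn5 was lower by -1.26 to -1.01 in IMQ+NS and -1.11 to -0.84 in IMQ+BZLF without single samples, with an exact permutation p of 0.0571 where a lesion sample was left out and 0.0286 where a control was. Fewer assignments exist with 3 against 4 samples, so these p-values cannot be ranked against those of 4 against 4. The controls, at 1.29 to 2.07, overlapped neither IMQ+NS, at 0.500 to 0.938, nor IMQ+BZLF, at 0.529 to 1.21. Against 5 lymphatic markers, added after seeing the data, it was at -0.36 and -0.43, and at -0.071 with BZLF against IMQ+NS. On the 7 junction lists, counts added after seeing the data gave 1 lower DEG in IMQ+NS with 1 added or a mean FPKM of at least 1 and 7 with equal sums; 0 with BZLF against IMQ+NS with 1 added or that filter, and 0 to 1 without single samples; and 1 in IMQ+BZLF against controls with 1 added or that filter. Over all genes, 1 added gave 1023 lower DEGs in IMQ+NS, 17 higher and 188 lower with BZLF against IMQ+NS, and 979 higher and 865 lower in IMQ+BZLF against controls; without single samples, the higher DEGs with BZLF against IMQ+NS ran from 19 to 78, the extremes being without IMQ+BZLF replicate 2 and 1. Equal sums moved the median of all genes in IMQ+NS from 0.05 to -0.07.

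Deviations of same-numbered samples correlated at -0.15 to 0.26. In each comparison numbers 3 and 4 were above 0.1 and matched their own number best, while number 2 was below 0 and did not. Number 1 matched its own best only with BZLF against IMQ+NS (0.094) and was below 0 in the other comparisons. The numbers were not taken as pairs, although seminal vesicle, kidney and pancreas genes in control and IMQ+BZLF libraries followed them. Whether samples of the same number share a batch cannot be told from these values. With the number as a replicate block, 4 higher and 4 lower of the 10 genes were DEGs in IMQ+NS, Cldn7 having an adjusted p of 0.0666, and 47 higher and 335 lower DEGs were found with BZLF against IMQ+NS.

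FPKM without counts leaves the sampling error of low genes such as Cldn7 and Cldn11 unknown. No value of the 10 genes stood apart within its group of 4 by Dixon's test at the 95% level, in 30 groups.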
